A study of Mus musculus with 12 samples.

Results

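Messenger RNA of 9 genes of the interleukin 6 (IL-6) family and its signalling path was followed in mouse skin that lacked the aryl hydrocarbon receptor (AhR) and in littermate skin that had it. The genes were chosen by name, with earlier results of these data known. They are the ligand genes *Il6*, *Il11*, *Lif* and *Osm*, the receptor genes *Il6ra*, *Osmr* and *Il6st*, the transcription factor gene *Stat3* and the inhibitor gene *Socs3*. All 9 were on the array, and they make up 9 of 18193 genes tested and 21 of 34945 probe sets that stand for one gene.

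The cytokines of this family share a receptor chain, gp130, which *Il6st* encodes. Binding of a ligand joins gp130 to itself or to a second chain, the Janus kinases on the chains then phosphorylate STAT3, and STAT3 enters the nucleus and turns on genes that include *Socs3*. The SOCS3 protein binds gp130 and the kinases and shuts the signal down, so that it closes a negative feedback loop. In skin the family is known for the proliferation of keratinocytes, for wound repair and for the acute phase response. Oncostatin M (OSM) acts on human keratinocytes through a receptor of gp130 and the OSMR chain.

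RNA of whole dorsal skin from 4 groups of mice was hybridised to 12 Affymetrix mouse genome arrays, 3 per group, which are biological replicates by their labels. The groups are *Ahr*-/- mice given imiquimod (IMQ) and taken on day 2, *Ahr*+/- mice given IMQ and taken on day 2, untreated *Ahr*-/- mice (day 0) and untreated *Ahr*+/- mice (day 0). *Ahr*-/- mice carry a germline deletion that affects every cell type, and the *Ahr*+/- controls keep 1 functional copy, so no group is wild type. IMQ, an agonist of Toll-like receptor 7, was given daily in Aldara cream on shaved back skin, and since the sources used here describe no cream for the untreated mice, the drug, the cream and its application cannot be told apart. Neither age nor sex is given in the labels.

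All values are log2 signals that depend on the probes, so that a signal is compared between arrays and never between genes, and a step of 1 on this scale is a 2-fold difference. Median signals of the 12 arrays lay between 7.38 and 7.56. Arrays 1 and 2 of IMQ-treated *Ahr*-/- skin stood apart in the control probe sets of *Gapdh*, whose 3' signal exceeded the 5' signal by 1.17 and 1.52, against 0.14 to 0.53 in the other 10 arrays, a gap that degraded RNA widens. Array 2 of untreated *Ahr*+/- skin stood apart in the genes of growing hair follicles, with a mean signal of 12.09 over 12 genes, against 8.13 and 8.60 in the other arrays of its group and 5.81 to 7.84 in the other 9 arrays. *Ahr* itself had signals of 9.07 to 9.87 in IMQ-treated *Ahr*-/- skin, 9.79 to 10.27 in IMQ-treated *Ahr*+/- skin, 11.29 to 11.44 in untreated *Ahr*-/- skin and 10.11 to 11.30 in untreated *Ahr*+/- skin. Where its probe set lies relative to the deletion was not determined here, so that these signals do not check the genotype labels.

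**Figure D1:**
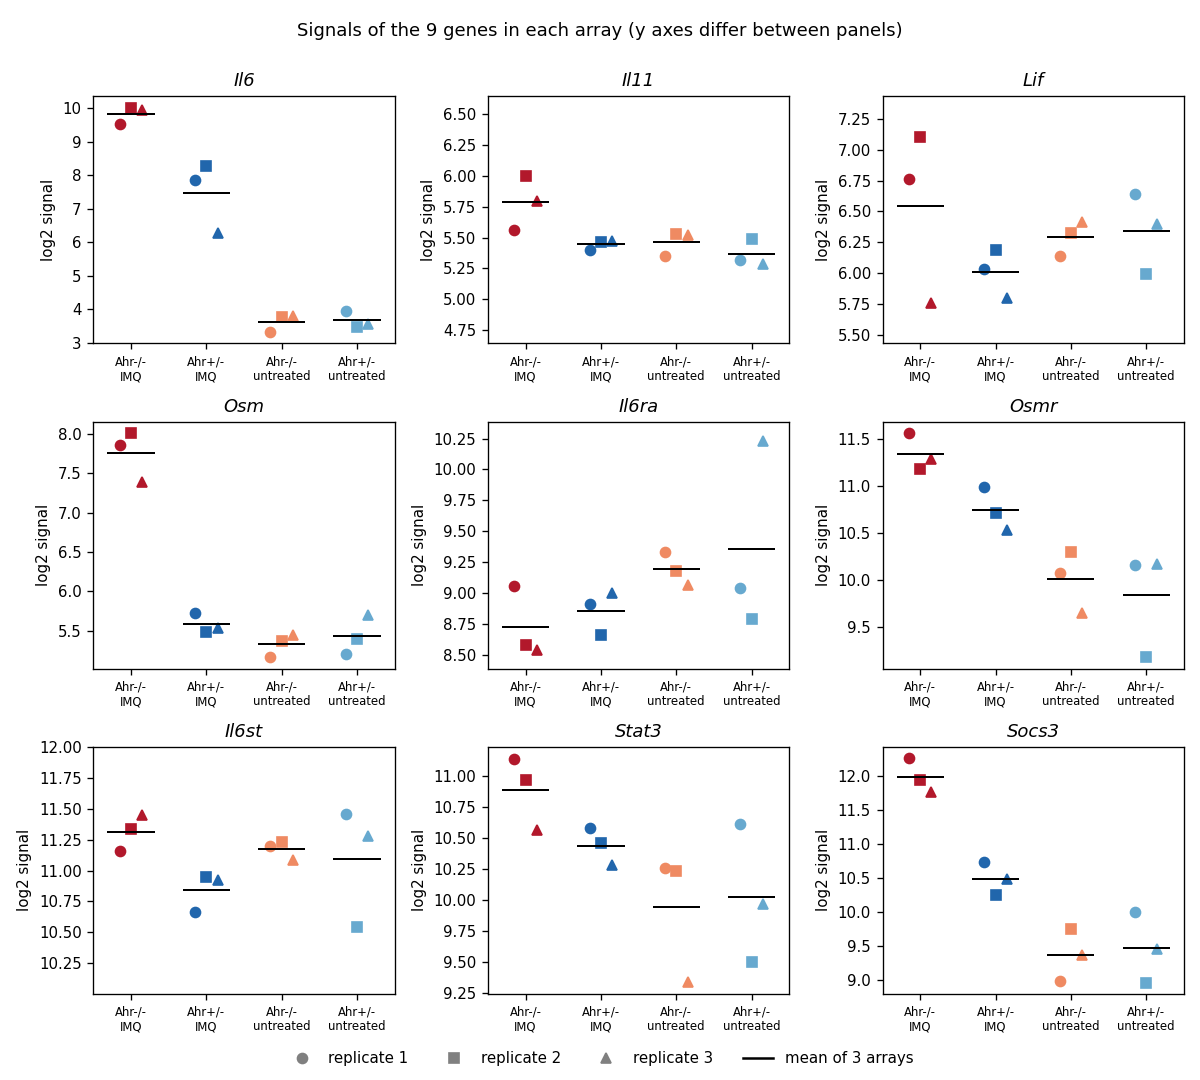
Log2 signal (y axis, with a range of its own in each panel) of the 9 genes in each of the 12 arrays, by genotype and treatment (x axis); points are single arrays and bars are group means. *Il6*, *Osm*, *Socs3*, *Osmr* and, by a narrow gap, *Il11* stood higher in every IMQ-treated *Ahr*-/- array than in any other array.

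Several of the 9 genes lie on chromosome 11 in the mouse build GRCm38.p6, as RefSeq places them. *Osm* (chr11:4236785-4241026) and *Lif* (chr11:4257568-4272514) are neighbours, with 16.5 kb between the end of *Osm* and the start of *Lif*. *Stat3* (chr11:100886806-100939594) and *Socs3* (chr11:117966079-117970336) lie further along. *Il6* is at chr5:30013114-30019975, *Il11* at chr7:4772373-4782907, *Il6ra* at chr3:89869324-89913196, *Il6st* at chr13:112464070-112506860 and *Osmr* at chr15:6813568-6874968. The promoters of *Il6*, *Socs3* and *Osmr* are shown, since these genes passed the test in both genotypes. Each window runs from 250 bases before to 50 bases after the transcript start that the RefSeq table gives (build GRCm38.p6), which for *Socs3* and *Osmr* lies inside the gene span given above. Sequences read 5' to 3' on the strand of the gene, and capitals mark matches, on either strand, to TTCNNNGAA (STAT factors), TGANTCA (AP-1) or TTGCNNAA (C/EBP):
*Il6*, plus strand, chr5:30012864-30013163: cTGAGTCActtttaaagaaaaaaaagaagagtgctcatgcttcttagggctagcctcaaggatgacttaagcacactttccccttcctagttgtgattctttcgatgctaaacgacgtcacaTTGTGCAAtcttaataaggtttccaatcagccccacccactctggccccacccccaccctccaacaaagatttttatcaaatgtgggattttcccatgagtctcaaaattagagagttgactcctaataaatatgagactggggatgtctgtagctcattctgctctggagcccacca
*Socs3*, minus strand, chr11:117969317-117969616: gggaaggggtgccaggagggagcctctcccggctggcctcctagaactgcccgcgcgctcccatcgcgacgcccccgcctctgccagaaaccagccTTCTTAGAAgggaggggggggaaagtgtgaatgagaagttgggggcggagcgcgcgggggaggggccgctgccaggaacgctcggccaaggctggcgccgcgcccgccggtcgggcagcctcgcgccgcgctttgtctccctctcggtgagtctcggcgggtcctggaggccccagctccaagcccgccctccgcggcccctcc
*Osmr*, minus strand, chr15:6874264-6874563: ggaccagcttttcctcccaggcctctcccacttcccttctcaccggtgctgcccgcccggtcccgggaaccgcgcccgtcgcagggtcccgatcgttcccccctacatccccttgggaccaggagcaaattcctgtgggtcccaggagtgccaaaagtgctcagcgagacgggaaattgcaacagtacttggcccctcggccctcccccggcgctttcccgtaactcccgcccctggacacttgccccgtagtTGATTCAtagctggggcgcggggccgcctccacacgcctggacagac
The *Il6* window holds an AP-1 match at base -249 and a C/EBP match at base -128, counted from the transcript start. The *Socs3* window holds a STAT match at base -154. The *Osmr* window holds an AP-1 match shortly after the start. The RefSeq table gave 9 windows for 8 of the 9 genes, *Osm* having none. Over these 9 windows, STAT was matched in 1, AP-1 in 4 and C/EBP in 1, while 8.3, 7.81 and 10.8% of all 32851 promoters in the table held them. GCGTG, the core of the site that AhR binds, was matched in 4 of the 9 windows and in 32.4% of all promoters. A narrower STAT form, TTCCNGGAA, which is contained in the first, was in none of the 9 windows and in 1.15% of all promoters. These matches describe the letters only.

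The response to IMQ was examined first, within each genotype. In *Ahr*-/- skin *Il6*, *Osm*, *Osmr*, *Stat3* and *Socs3* rose and no member fell, 5 of 9 genes, while 22.7% of all genes tested were called in that comparison, 10.6% higher and 12.1% lower. In *Ahr*+/- skin *Il6*, *Osmr* and *Socs3* rose and none fell, 3 of 9 genes, while 9.05% of all genes were called, 5.22% higher and 3.83% lower. A gene was called where limma gave an adjusted p under 0.05 and the fold change was at least 1.5. The median difference of the 9 genes was 0.95 in *Ahr*-/- skin and 0.15 in *Ahr*+/- skin, and that of all genes was 0.07 and -0.01. In bulk skin a change in the number of cells of a type and a change in RNA per cell cannot be told apart, which holds for every value here.

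*Il6* encodes the founding cytokine of the family. Its signals were 9.54, 10.02 and 9.96 in IMQ-treated *Ahr*-/- skin, against 3.31, 3.77 and 3.81 in untreated *Ahr*-/- skin. They were 7.85, 8.28 and 6.26 in IMQ-treated *Ahr*+/- skin, against 3.95, 3.46 and 3.57 in untreated *Ahr*+/- skin. Every treated array lay above every untreated one. No detection call was at hand for the untreated signals, which may be background, so that both rises may be lower bounds of the change. The measured rise was 6.21 ± 0.39 (SE, adjusted p = 9.61e-07) in *Ahr*-/- skin. It was 3.80 ± 0.39 (SE, adjusted p = 0.000104) in *Ahr*+/- skin. Both rises kept their call under each of the 25 other settings tried.

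*Osm* encodes oncostatin M, a cytokine made mainly by myeloid cells and T cells. Its signals were 7.86, 8.02 and 7.39 in IMQ-treated *Ahr*-/- skin, against 5.16, 5.37 and 5.45 in untreated *Ahr*-/- skin. They were 5.72, 5.48 and 5.53 in IMQ-treated *Ahr*+/- skin, against 5.21, 5.39 and 5.70 in untreated *Ahr*+/- skin. The groups were wide apart in *Ahr*-/- skin and overlapped in *Ahr*+/- skin, and whether *Osm* was above background outside IMQ-treated *Ahr*-/- skin is not known. *Osm* rose by 2.43 ± 0.18 (SE, adjusted p = 3.34e-06) in *Ahr*-/- skin. The difference in *Ahr*+/- skin was 0.15 (95% interval -0.25 to 0.54, adjusted p = 0.693).

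The other ligands of the set passed the test in neither genotype. *Il11*, whose protein signals through its own receptor and gp130, had signals of 5.56 to 5.999 in IMQ-treated and 5.35 to 5.53 in untreated *Ahr*-/- skin, and of 5.40 to 5.47 in IMQ-treated and 5.29 to 5.49 in untreated *Ahr*+/- skin. *Lif*, which encodes leukaemia inhibitory factor, differed by 0.25 (adjusted p = 0.563) in *Ahr*-/- skin and by -0.34 (adjusted p = 0.526) in *Ahr*+/- skin. In IMQ-treated *Ahr*-/- skin *Lif* had 6.76, 7.11 and 5.76, of which the third was lower than every untreated array. It had 5.80 to 6.19 in IMQ-treated *Ahr*+/- skin, 6.14 to 6.42 in untreated *Ahr*-/- skin and 5.99 to 6.64 in untreated *Ahr*+/- skin. Without that array the difference in *Ahr*-/- skin was 0.64 (adjusted p = 0.0409), past the threshold. That omission leaves the 2 IMQ-treated *Ahr*-/- arrays with the high *Gapdh* 3' signal. The other *Lif* probe set had 4.58, 4.57 and 4.01 in IMQ-treated *Ahr*-/- skin. It was not called in the *Ahr*-/- response (0.42, adjusted p = 0.0903).

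Among the receptor genes *Osmr* rose in both genotypes. It encodes the chain that pairs with gp130 to bind OSM and with IL-31RA to bind IL-31. Its signals were 11.56, 11.18 and 11.28 in IMQ-treated *Ahr*-/- skin, against 10.08, 10.30 and 9.65 in untreated *Ahr*-/- skin. They were 10.99, 10.71 and 10.53 in IMQ-treated *Ahr*+/- skin, against 10.16, 9.17 and 10.17 in untreated *Ahr*+/- skin. Treated and untreated arrays did not overlap in either genotype. In the brightest probe set the rise was 1.34 ± 0.26 (SE, adjusted p = 0.00264) in *Ahr*-/- skin and 0.91 ± 0.26 (SE, adjusted p = 0.0449) in *Ahr*+/- skin. The other 2 probe sets were not called in either genotype, and one of them gave 0.32 (adjusted p = 0.544) in *Ahr*-/- skin and 1.03 (adjusted p = 0.0778) in *Ahr*+/- skin, the opposite order. That set averaged 5.14 over the 12 arrays and the other 4.80, below the lower quartile of gene means (5.48), so both may be background. In IMQ-treated *Ahr*-/- skin the set with 0.32 had 5.46, 4.26 and 6.01, the lowest in array 2, which had a high *Gapdh* 3' signal. With the mean of all 3 sets the rise in *Ahr*-/- skin was 0.72 (adjusted p = 0.0101). The rise in *Ahr*+/- skin missed the threshold under 14 of 25 other settings, 9 of them the omission of a single array, among them array 2 of untreated *Ahr*+/- skin, without which it was 0.58 (adjusted p = 0.0813). With array 3 as the sole IMQ-treated *Ahr*-/- array, the rise in *Ahr*-/- skin was 1.28 (adjusted p = 0.0828), where the spread comes from the other groups and the lone array is assumed to vary as they do.

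The genes of the other receptor chains did not pass. *Il6ra*, which encodes the chain specific to IL-6, had signals of 8.54 to 9.06 in IMQ-treated and 9.06 to 9.33 in untreated *Ahr*-/- skin, and of 8.66 to 8.997 in IMQ-treated and 8.79 to 10.23 in untreated *Ahr*+/- skin. It differed by -0.47 (adjusted p = 0.275) in *Ahr*-/- skin and by -0.50 (adjusted p = 0.338) in *Ahr*+/- skin. *Il6st* had 11.16, 11.34 and 11.45 in IMQ-treated *Ahr*-/- skin, against 11.20, 11.23 and 11.09 in untreated *Ahr*-/- skin. It had 10.66, 10.95 and 10.92 in IMQ-treated *Ahr*+/- skin, against 11.46, 10.55 and 11.28 in untreated *Ahr*+/- skin. Treated and untreated arrays overlapped in both genotypes. It differed by 0.14 (95% interval -0.30 to 0.59, adjusted p = 0.65) in *Ahr*-/- skin and by -0.25 (95% interval -0.70 to 0.20, adjusted p = 0.511) in *Ahr*+/- skin. None of the 4 probe sets of *Il6st* passed in either genotype.

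*Socs3*, the feedback inhibitor, rose in both genotypes. Its signals were 12.27, 11.95 and 11.77 in IMQ-treated *Ahr*-/- skin, against 8.99, 9.76 and 9.37 in untreated *Ahr*-/- skin. They were 10.74, 10.25 and 10.49 in IMQ-treated *Ahr*+/- skin, against 9.999, 8.97 and 9.45 in untreated *Ahr*+/- skin. The groups did not overlap in either genotype, and the gap was narrow in *Ahr*+/- skin. The rise was 2.62 ± 0.26 (SE, adjusted p = 2.79e-05) in *Ahr*-/- skin and 1.02 ± 0.26 (SE, adjusted p = 0.0281) in *Ahr*+/- skin. All 3 probe sets of *Socs3* passed in *Ahr*-/- skin, with rises of 2.28 to 2.62, and 1 of 3 in *Ahr*+/- skin. The call in *Ahr*+/- skin was lost without any 1 of 4 arrays, namely untreated *Ahr*+/- array 2 (0.77, adjusted p = 0.057) or 3 (1.01, adjusted p = 0.0762) and IMQ-treated *Ahr*+/- array 1 (0.90, adjusted p = 0.115) or 3 (1.02, adjusted p = 0.0748).

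*Stat3*, the transcription factor of the path and itself one of the genes that STAT3 turns on, rose in *Ahr*-/- skin. Its signals there were 11.14, 10.97 and 10.56 with IMQ, against 10.26, 10.23 and 9.34 without. In *Ahr*+/- skin they were 10.58, 10.46 and 10.28 with IMQ, against 10.62, 9.49 and 9.97 without, and the groups overlapped. The difference was 0.95 ± 0.30 (SE, adjusted p = 0.03) in *Ahr*-/- skin and 0.42 (adjusted p = 0.431) in *Ahr*+/- skin, and 3 of its 4 probe sets passed in *Ahr*-/- skin. The call was lost without untreated *Ahr*-/- array 3 (0.65, adjusted p = 0.107), IMQ-treated *Ahr*-/- array 1 (0.83, adjusted p = 0.107) or array 2 (0.91, adjusted p = 0.0891), with array 3 as the sole IMQ-treated *Ahr*-/- array (0.62, adjusted p = 0.438), and with the *Gapdh* difference as a covariate (0.75, adjusted p = 0.258).

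**Figure D2:**
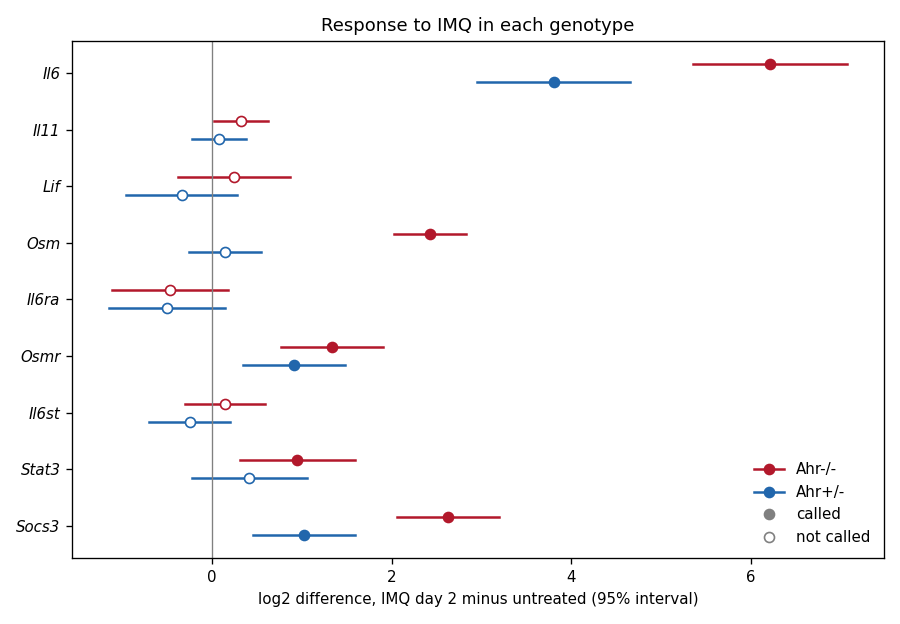
Log2 difference of IMQ-treated minus untreated skin (x axis) for the 9 genes in *Ahr*-/- and in *Ahr*+/- mice; points are limma estimates and lines 95% intervals. The 2 intervals of *Osm* lie wide apart, 2.03 to 2.82 in *Ahr*-/- skin and -0.25 to 0.54 in *Ahr*+/- skin.

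The genotypes were then compared on day 2, which asks how skin without AhR stands against skin with it under IMQ. *Il6*, *Osm* and *Socs3* were higher in IMQ-treated *Ahr*-/- than in IMQ-treated *Ahr*+/- skin and no member was lower, 3 of 9 genes, while 3.98% of all genes were called, 2.12% higher and 1.86% lower. The difference of *Osm* was 2.17 ± 0.18 (SE, adjusted p = 7.1e-05), that of *Il6* 2.38 ± 0.39 (SE, adjusted p = 0.00616) and that of *Socs3* 1.502 ± 0.26 (SE, adjusted p = 0.00859). The arrays of the 2 genotypes did not overlap for these 3 genes, nor for *Il11*, *Osmr* and *Il6st*, which were not called. The share of all genes without overlap was not counted, so the lack of overlap is description only. *Osmr* averaged 11.34 ± 0.20 in IMQ-treated *Ahr*-/- skin and 10.74 ± 0.23 in IMQ-treated *Ahr*+/- skin (SD, n = 3 each), a difference of 0.60 (adjusted p = 0.213). *Il11* differed by 0.34 (adjusted p = 0.185), *Il6st* by 0.47 (adjusted p = 0.216), *Lif* by 0.53 (adjusted p = 0.307), *Stat3* by 0.45 (adjusted p = 0.404) and *Il6ra* by -0.13 (adjusted p = 0.827).

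The probe sets of a gene did not all speak alike on day 2. All 3 sets of *Socs3* were called higher in IMQ-treated *Ahr*-/- skin, with differences of 1.502 to 1.90. One of the 4 *Stat3* sets was called higher, by 0.94 (adjusted p = 0.0438). It had 11.02, 10.92 and 10.09 in IMQ-treated *Ahr*-/- skin and 9.71 to 9.77 in IMQ-treated *Ahr*+/- skin. Its 2 highest values were those of the arrays with the high *Gapdh* 3' signal. The 3 *Osmr* sets gave differences of -0.46 to 0.60 and none was called. One *Il6st* set had 7.04, 6.18 and 8.21 in IMQ-treated *Ahr*-/- skin and 8.29, 8.52 and 8.17 in IMQ-treated *Ahr*+/- skin, opposite in sign to the brightest set, with a difference of -1.19 (adjusted p = 0.172). The low values of that set were those of the 2 arrays with the high *Gapdh* 3' signal.

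RNA quality moved with genotype on day 2, since 2 of the 3 IMQ-treated *Ahr*-/- arrays had that *Gapdh* difference. *Osm* stayed called under all 25 other settings, with differences of 1.74 to 2.36. With the *Gapdh* difference as a covariate, *Il6* differed by 2.56 (adjusted p = 0.164) and *Socs3* by 1.33 (adjusted p = 0.297), and neither was called. With array 3 as the sole IMQ-treated *Ahr*-/- array, *Il6* differed by 2.50 (adjusted p = 0.19) and *Socs3* by 1.27 (adjusted p = 0.305), again on a spread taken from the other groups. *Socs3* was also not called without IMQ-treated *Ahr*+/- array 2 (1.38, adjusted p = 0.0545). *Lif* was called without IMQ-treated *Ahr*-/- array 3 (0.93, adjusted p = 0.0239), an omission that leaves the 2 arrays with the high *Gapdh* difference.

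**Figure D3:**
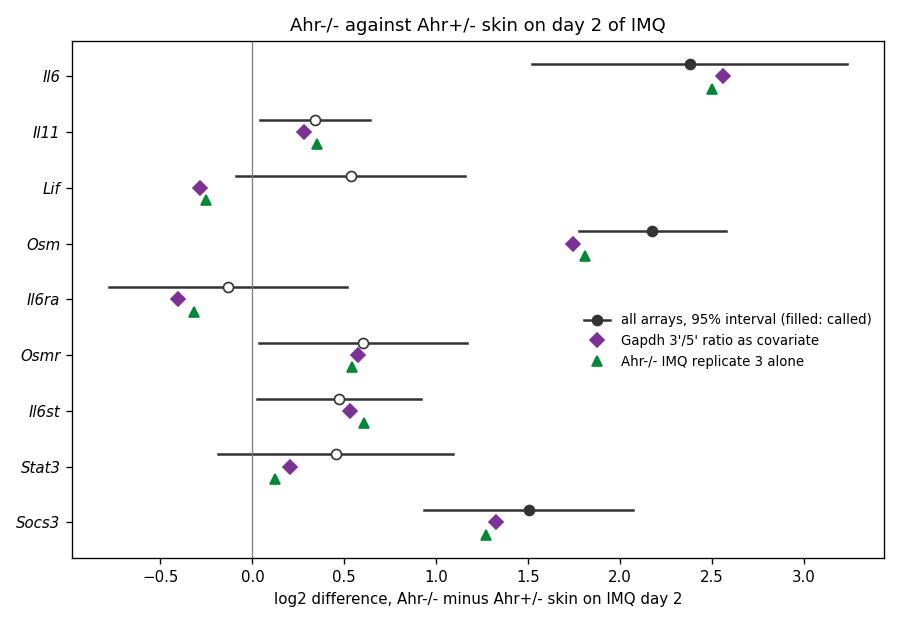
Log2 difference of IMQ-treated *Ahr*-/- minus IMQ-treated *Ahr*+/- skin (x axis) for the 9 genes, from all arrays (circles, filled where called, with 95% intervals), with the *Gapdh* difference as a covariate (diamonds) and with array 3 as the sole IMQ-treated *Ahr*-/- array (triangles). *Il6*, *Osm* and *Socs3* lay above 1 in each setting, *Osm* at 2.17 with all arrays and at 1.74 with the covariate, and the estimates of *Lif* lay on both sides of 0.

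In untreated skin no member passed the test between genotypes. The differences of untreated *Ahr*-/- minus untreated *Ahr*+/- skin ran between -0.16 and 0.18, each with an adjusted p of 0.929 or more in limma, and 0 of 9 genes had an unadjusted p under 0.05. Of all genes 0.0055% were called, which is 1 gene. The spread within untreated *Ahr*+/- skin was wide for several members, and array 2 was the lowest of the group for *Osmr*, *Il6st*, *Stat3* and *Socs3*. The 95% intervals, from the variance pooled over the 4 groups, reached from -0.67 to 0.47 for *Socs3* and from -0.89 to 0.82 for *Il6*.

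The difference between the responses, that of *Ahr*-/- skin minus that of *Ahr*+/- skin, was tested by itself. *Osm* was the member that passed, 1 of 9 genes, while 1.32% of all genes were called, 0.539% higher and 0.786% lower. Its response was larger in *Ahr*-/- skin by 2.28 ± 0.26 (SE, 95% interval 1.72 to 2.84, adjusted p = 0.00221), and it kept that call under all 24 other settings, with values of 1.82 to 2.48. *Il6* differed by 2.41 ± 0.56 (SE, adjusted p = 0.0569) and *Socs3* by 1.60 ± 0.37 (SE, adjusted p = 0.0569), and so neither passed. The other 6 members had values above 0 with adjusted p between 0.489 and 0.979. *Il6* and *Socs3* passed under some settings, which included leaving out IMQ-treated *Ahr*+/- array 1 for *Il6* (2.60, adjusted p = 0.0457) and for *Socs3* (1.72, adjusted p = 0.0475) and array 2 of untreated *Ahr*+/- skin for *Socs3* (1.86, adjusted p = 0.0195).

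Markers of neutrophils moved with *Osm*. The mean signal of 10 neutrophil genes, of 12 listed, was 7.84 to 8.10 in IMQ-treated *Ahr*-/- skin, 5.80 to 6.56 in IMQ-treated *Ahr*+/- skin, 5.63 to 5.89 in untreated *Ahr*-/- skin and 5.52 to 5.84 in untreated *Ahr*+/- skin. On day 2, 6 of the 10 were called higher in *Ahr*-/- skin, while 2.12% of all genes were called higher. *Csf3r*, the receptor of granulocyte colony-stimulating factor, averaged 10.48 in IMQ-treated *Ahr*-/- skin and 8.18 in IMQ-treated *Ahr*+/- skin, and the collagenase gene *Mmp8* averaged 10.20 in IMQ-treated *Ahr*-/- skin and 6.37 in IMQ-treated *Ahr*+/- skin. *Mpo* and *Elane*, granule genes of neutrophil precursors, averaged 4.77 and 5.30 in IMQ-treated *Ahr*-/- skin and 4.52 and 4.92 in IMQ-treated *Ahr*+/- skin. Within IMQ-treated *Ahr*+/- skin, array 1 had the highest neutrophil mean, 6.56 against 5.88 and 5.80, and the highest *Osm*, 5.72 against 5.48 and 5.53. That *Osm* signal was close to the 5.70 of array 3 of untreated *Ahr*+/- skin. The order was not kept within IMQ-treated *Ahr*-/- skin. There array 1 had the lowest neutrophil mean, 7.84, with *Osm* at 7.86, and array 3 had 7.98 with the lowest *Osm*, 7.39. The part of neutrophil number in the *Osm* values was not tested.

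**Figure D4:**
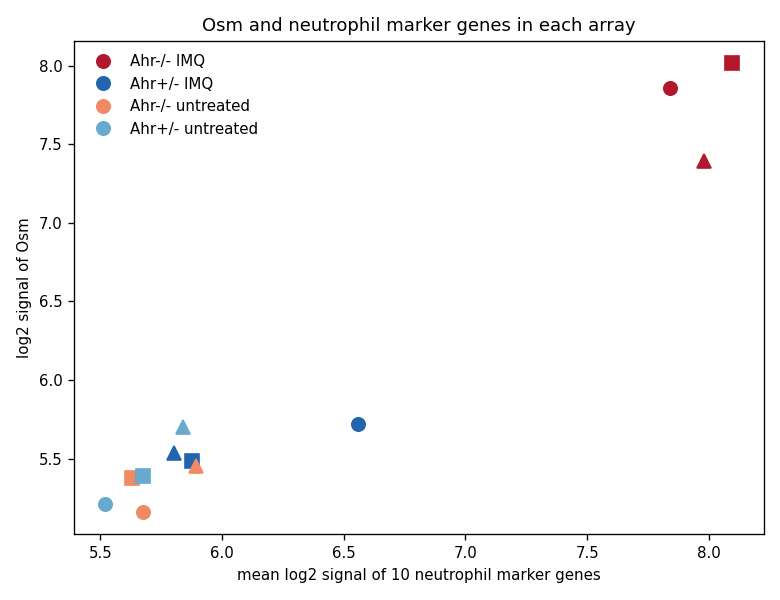
Log2 signal of *Osm* (y axis) against the mean log2 signal of 10 neutrophil marker genes (x axis) in each of the 12 arrays, with the group by colour and the replicate by marker shape. The 3 IMQ-treated *Ahr*-/- arrays lie apart from the other 9, at *Osm* signals of 7.39 to 8.02.

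Markers of other cell types were read in the same way. The macrophage and monocyte list, 10 of 12 genes measured, averaged 10.57 to 11.10 in IMQ-treated *Ahr*-/- skin and 10.60 to 11.13 in IMQ-treated *Ahr*+/- skin, and 1 of its genes was called, as lower, on day 2. The T cell list, 7 of 12 genes, averaged 6.80 to 7.09 in IMQ-treated *Ahr*-/- skin and 6.67 to 6.97 in IMQ-treated *Ahr*+/- skin. Keratinocyte genes, 7 of 8, averaged 11.88 to 12.21 in IMQ-treated *Ahr*-/- skin and 12.61 to 13.46 in IMQ-treated *Ahr*+/- skin, with 2 called lower. In the same order of groups, genes of differentiated epidermis averaged 10.99 and 13.70 (*Krt10*), 10.85 and 13.64 (*Krt1*) and 10.28 and 12.48 (*Lor*). The rest of the list averaged 13.61 and 13.79 (*Krt5*), 14.72 and 14.74 (*Krt14*), 11.17 and 11.48 (*Trp63*) and 12.46 and 12.35 (*Itga6*). Endothelial genes averaged 8.23 to 8.29 in IMQ-treated *Ahr*-/- skin and 7.78 to 7.84 in IMQ-treated *Ahr*+/- skin, with 1 of 6 called higher. Fibroblast genes averaged 11.98 to 12.26 in IMQ-treated *Ahr*-/- skin and 12.16 to 12.24 in IMQ-treated *Ahr*+/- skin, with 1 of 7 called lower. Mast cell genes averaged 7.02 to 7.25 in IMQ-treated *Ahr*-/- skin and 7.16 to 7.24 in IMQ-treated *Ahr*+/- skin, with 1 of 7 called higher. Of all genes 2.12% were called higher and 1.86% lower on day 2. The part of these cell types in the values of *Il6*, *Osmr* and *Socs3* was not tested.

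Over the 12 arrays the genes most like *Osm*, by Pearson's r among 3093 genes with an SD of at least 0.5, were *Cd177* (r = 0.99), a surface protein of neutrophils, the chemokine gene *Ccl4* (r = 0.99) and *Rrad* (r = 0.99). *Cd177* averaged 7.51 in IMQ-treated *Ahr*-/- skin, against 4.43 in IMQ-treated *Ahr*+/- skin, 4.29 in untreated *Ahr*-/- skin and 4.42 in untreated *Ahr*+/- skin, the same shape as *Osm*. *Il6* was most like *Timp1* (r = 0.99), *Ier3* (r = 0.98) and *Fpr2* (r = 0.98), which stood highest in IMQ-treated *Ahr*-/- skin and next in IMQ-treated *Ahr*+/- skin. *Socs3* was most like *Slfn2* (r = 0.99), *Pstpip1* (r = 0.975) and *Ifitm1* (r = 0.975). *Osmr* was most like *Pirb*, *Ctla2b* and *Retsat* (r = 0.97 for each). Among the members, *Socs3* had r = 0.93 with *Il6*, 0.93 with *Osmr* and 0.90 with *Osm*. These values describe arrays that share treatment, genotype and normalization.

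The rest of the family was looked at through lists of genes chosen by function. Of 13 other ligands and receptors that use gp130 or its relatives, 8 were measured, with 2 genes up and 1 down in *Ahr*-/- skin, and 2 genes up in *Ahr*+/- skin. Of all genes 22.7% were called in *Ahr*-/- skin, 10.6% of them higher and 12.1% lower. In *Ahr*+/- skin 9.05% of all genes were called, 5.22% higher and 3.83% lower. *Clcf1*, which encodes cardiotrophin-like cytokine factor 1, a ligand of the CNTF receptor, averaged 9.19 in IMQ-treated *Ahr*-/- skin, 8.41 in IMQ-treated *Ahr*+/- skin, 5.94 in untreated *Ahr*-/- skin and 5.58 in untreated *Ahr*+/- skin. It rose by 3.25 (adjusted p = 3.53e-05) in *Ahr*-/- skin and by 2.83 (adjusted p = 0.000301) in *Ahr*+/- skin, under every other setting too. *Ebi3*, a subunit of IL-27 and IL-35, rose by 2.17 (adjusted p = 0.000643) in *Ahr*+/- skin, while its difference in *Ahr*-/- skin was 0.56 (adjusted p = 0.174). The difference between those responses was -1.61 (adjusted p = 0.0767). In *Ahr*-/- skin *Cntfr*, the receptor chain for CNTF, rose by 0.84 (adjusted p = 0.0105), and *Il31ra*, the partner of OSMR in the IL-31 receptor, fell by 1.72 (adjusted p = 0.0268). None of the 8 was called between genotypes or in the difference of responses, and the lowest p were those of *Ebi3* on day 2 (-1.02, adjusted p = 0.0683) and of *Cntfr* in untreated skin (-0.60, adjusted p = 0.719). The median difference of the 8 was -0.08 in each genotype's response. *Il31ra* lost its call without array 1 (-1.60, adjusted p = 0.0877) or 2 (-1.38, adjusted p = 0.112) of untreated *Ahr*-/- skin and without array 1 (-1.74, adjusted p = 0.0663), 2 (-1.70, adjusted p = 0.0757) or 3 (-1.70, adjusted p = 0.061) of IMQ-treated *Ahr*-/- skin. With the *Gapdh* difference as a covariate, *Il31ra* (-1.81, adjusted p = 0.131) and *Cntfr* (0.68, adjusted p = 0.138) both lost their calls. With array 3 as the sole IMQ-treated *Ahr*-/- array, the differences were -1.74 for *Il31ra* and 0.61 for *Cntfr*.

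The signal path besides *Stat3* and *Socs3* was covered by a list of 20 kinase, STAT, phosphatase and inhibitor genes, 19 of them measured. In *Ahr*-/- skin 2 rose and 2 fell, a share near the 22.7% of all genes called there. None was called in *Ahr*+/- skin, where *Socs7* had the lowest p (-0.59, adjusted p = 0.0665). *Ptpn1* and *Ptpn2*, phosphatases that act on Janus kinases and STATs, rose by 0.98 (adjusted p = 0.000868) and 0.75 (adjusted p = 0.00516) in *Ahr*-/- skin. *Ptpn2* lost its call with the *Gapdh* difference as a covariate (0.66, adjusted p = 0.073). With array 3 as the sole IMQ-treated *Ahr*-/- array, neither kept its call, at 0.78 for *Ptpn1* and 0.58 for *Ptpn2*. *Socs6* and *Socs7*, relatives of *Socs3*, fell by 0.94 (adjusted p = 0.0226) and 0.71 (adjusted p = 0.0139). None of the 19 was called on day 2 between genotypes, where *Socs4* differed by -0.56 (adjusted p = 0.0352), under the fold minimum. None was called in untreated skin, where *Ptpn11* had the lowest p (-0.34, adjusted p = 0.756), or in the difference of responses, where *Ptpn1* had it (0.72, adjusted p = 0.13). The list's median difference was -0.09 in *Ahr*-/- skin and -0.19 in *Ahr*+/- skin. The mean of all probe sets left neither fall, at -0.51 (adjusted p = 0.204) for *Socs6* and -0.26 (adjusted p = 0.127) for *Socs7*, and each fall was also lost without array 2 of untreated *Ahr*-/- skin (-0.87, adjusted p = 0.0768, and -0.63, adjusted p = 0.0619), as well as without other single *Ahr*-/- arrays.

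Genes known to be induced by IL-6 family cytokines through STAT3 in mouse tissues made up a list of 26, all measured. Of these 16 rose and 1 fell in *Ahr*-/- skin and 9 were not called, with a median of 1.42. In *Ahr*+/- skin 13 rose and 13 were not called, with a median of 1.06. The largest rises in both genotypes were those of acute phase genes. *Saa3*, a serum amyloid A gene, rose by 8.22 (adjusted p = 2.8e-07) in *Ahr*-/- skin and by 7.36 (adjusted p = 1.45e-06) in *Ahr*+/- skin. *Lcn2*, which encodes the iron-siderophore binder lipocalin 2, rose by 7.62 (adjusted p = 5.42e-07) in *Ahr*-/- skin and by 6.26 (adjusted p = 4.13e-06) in *Ahr*+/- skin. *Saa1* rose by 5.96 (adjusted p = 4.69e-06) in *Ahr*-/- skin and by 4.31 (adjusted p = 0.000162) in *Ahr*+/- skin, with the limit that probes of the near-identical genes *Saa1* and *Saa2* can share signal. *Timp1*, a metalloprotease inhibitor, rose by 4.49 (adjusted p = 2.67e-07) in *Ahr*-/- skin and by 2.85 (adjusted p = 1.63e-05) in *Ahr*+/- skin. *Bcl6*, a transcriptional repressor, fell by 0.89 (adjusted p = 0.00363) in *Ahr*-/- skin. Many of these genes also answer to IL-1, TNF or IL-17.

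On day 2, 6 of the 26 were higher in IMQ-treated *Ahr*-/- than in IMQ-treated *Ahr*+/- skin and none was lower, with a median difference of 0.71, against 0.06 over all genes. Of all genes 2.12% were called higher and 1.86% lower. The largest differences were those of *Lrg1*, a secreted glycoprotein (1.82, adjusted p = 0.0165), *Il4ra*, the IL-4 receptor chain (1.65, adjusted p = 0.00993), *Timp1* (1.59, adjusted p = 0.00312), and *Saa2* (1.24, adjusted p = 0.0469). In the difference of responses 2 of the 26 were called higher, while 0.539% of all genes were called higher and 0.786% lower. The response of *Lrg1* was larger in *Ahr*-/- skin by 2.44 (adjusted p = 0.0409) and that of *Timp1* by 1.64 (adjusted p = 0.0346). That difference lost its call under 11 of 24 other settings for *Lrg1* and under 10 of 24 for *Timp1*, among them the omission of untreated *Ahr*-/- array 1 (adjusted p = 0.115 for *Lrg1* and 0.107 for *Timp1*) or IMQ-treated *Ahr*+/- array 2 (adjusted p = 0.116 for *Lrg1* and 0.109 for *Timp1*). In untreated skin none of the 26 was called, the lowest p being that of *Fgl2* (1.02, adjusted p = 0.717). With the *Gapdh* difference as a covariate, or with array 3 as the sole IMQ-treated *Ahr*-/- array, 0 of the 26 were called between genotypes on day 2 and 0 in the difference of responses. Of single arrays, the omission of IMQ-treated *Ahr*+/- array 2 took the day 2 calls of *Lrg1* (1.77, adjusted p = 0.079), *Il4ra* (1.60, adjusted p = 0.0564) and *Saa2* (0.95, adjusted p = 0.208), that of IMQ-treated *Ahr*+/- array 3 or IMQ-treated *Ahr*-/- array 2 took the same calls, and *Saa2* lost its call without each of 6 other arrays.

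The last list held 12 keratinocyte genes that OSM raises or lowers in culture, 11 of them measured. In *Ahr*-/- skin 7 rose and 4 fell, and in *Ahr*+/- skin 6 rose and none fell. Of all genes 10.6% were called higher and 12.1% lower in *Ahr*-/- skin, and 5.22% higher and 3.83% lower in *Ahr*+/- skin. The part of OSM in the values of this list was not tested. *S100a9*, a calprotectin subunit, rose by 8.35 (adjusted p = 1.14e-08) in *Ahr*-/- skin and by 8.23 (adjusted p = 1.36e-08) in *Ahr*+/- skin. *S100a8*, the other subunit, rose by 7.74 (adjusted p = 1.72e-07) in *Ahr*-/- skin and by 7.12 (adjusted p = 6.28e-07) in *Ahr*+/- skin. *Krt16*, a keratin of activated epidermis, rose by 6.60 (adjusted p = 8.07e-07) in *Ahr*-/- skin and by 6.64 (adjusted p = 1.51e-06) in *Ahr*+/- skin. The chemokine gene *Cxcl5* rose by 7.77 (adjusted p = 0.000172) in *Ahr*-/- skin. *Krt6a* rose by 2.96 in *Ahr*+/- skin, and it was also called higher in *Ahr*-/- skin, where all 11 genes were called. At most 4 rises are named for each genotype, so a value given for 1 genotype alone is no contrast between them. The genes that fell in *Ahr*-/- skin were those of differentiated epidermis, with differences of -3.58 for *Lor*, -3.47 for *Krt10*, -2.34 for *Flg* and -1.47 for *Krt1* and adjusted p of 0.000913, 0.000172, 0.0382 and 0.032. Of these 4 falls 2 were called with the *Gapdh* difference as a covariate and 1 with array 3 as the sole IMQ-treated *Ahr*-/- array, and *Flg* and *Krt1* each lost the call without array 1 or 2 of untreated or of IMQ-treated *Ahr*-/- skin, with adjusted p of 0.128 to 0.148 for *Flg* and 0.0879 to 0.116 for *Krt1*. On day 2, 2 of the 11 were higher and 3 lower in IMQ-treated *Ahr*-/- skin, while 2.12% of all genes were called higher and 1.86% lower. The 5 genes were *Cxcl5* (5.31, adjusted p = 0.0119), *Il1b* (4.09, adjusted p = 0.000585), *Flg* (-3.01, adjusted p = 0.0475), *Krt1* (-2.79, adjusted p = 0.00616) and *Krt10* (-2.71, adjusted p = 0.00593). In the difference of responses *Il1b* was higher (4.17, adjusted p = 0.0131) and *Krt1* (-2.98, adjusted p = 0.0488) and *Krt10* (-2.85, adjusted p = 0.0496) were lower. There 0.539% of all genes were called higher and 0.786% lower. None of the 11 was called in untreated skin, the lowest p being that of *S100a9* (0.51, adjusted p = 0.793). *Flg* on day 2 missed the threshold under 15 of 25 other settings and *Krt1* and *Krt10* in the difference of responses under 17 and 16 of 24, omissions of single arrays among them. *Il1b* lost its call in the difference of responses with the *Gapdh* difference as a covariate (adjusted p = 0.152), with array 3 as the sole IMQ-treated *Ahr*-/- array (adjusted p = 0.161) and without untreated *Ahr*-/- array 1 (adjusted p = 0.051), and *Cxcl5* lost its day 2 call without IMQ-treated *Ahr*+/- array 2 (adjusted p = 0.0625). Of the 5 day 2 calls 1 was left with the *Gapdh* difference as a covariate and 0 with array 3 as the sole IMQ-treated *Ahr*-/- array.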

How the data were processed

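RNA of 12 whole skin samples was measured on Affymetrix mouse genome arrays. For each probe set the authors deposited a log2 signal made by RMA (R package affy, of a version not given in the sources used here). In RMA, background correction is followed by quantile normalization across arrays and a summary per probe set. Raw intensities and detection calls were not used here, and the number of arrays limits the precision. Groups were taken from the labels, 3 arrays each. Where a replicate was drawn from is not described further, so p-values measure the spread between these arrays.

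Of 45101 probe sets, 64 controls, 932 sets of several genes and 9160 without a symbol were left out, and for each of 18193 genes the probe set brightest on average was kept. A linear model of the 4 group means was fitted in R 4.3.3 with limma 3.58.1, using lmFit and eBayes (8 residual and 4.44 prior degrees of freedom). The Benjamini-Hochberg adjustment ran over the 18193 genes within each of 5 comparisons. Calls needed both an adjusted p under 0.05 and at least a 1.5-fold difference. The steps were tested on simulated data. The criterion of the study, a rank product with the same fold minimum, was not used. The 9 genes, the gene and marker lists and the settings were chosen with earlier results of these data known. In the text all 9 genes are named, with up to 4 called genes of each list in each direction or the one with the lowest p where none was called, and with the 3 genes most like *Il6*, *Osm*, *Osmr* and *Socs3*.

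Alternatives were an adjusted p under 0.01, no fold minimum, all probe sets or their mean, a mean signal of at least 5, centring on array medians, a second quantile normalization, a variance trend with robust prior, array weights, a separate fit of just the groups in a comparison, a block for the replicate number, the *Gapdh* 3' minus 5' difference as a covariate, array 3 as the sole IMQ-treated *Ahr*-/- array (its spread taken from the other groups), and omission of each of the 12 arrays. Promoters and places came from RefSeq (GRCm38.p6), matched by symbol or gene ID. Tables and plots used Python 3.11.15, numpy 2.4.6, pandas 2.3.3 and matplotlib 3.10.9.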

Additional observations from a re-analysis of the deposited data

Results flagged for a closer look

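*Osm* was set apart because its response to IMQ differed between the genotypes in limma's test of that difference. The response was larger in *Ahr*-/- than in *Ahr*+/- skin by 2.28 on the log2 scale (adjusted p = 0.00221). All 3 IMQ-treated *Ahr*-/- arrays lay above all 9 others.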

How the results depend on the processing

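Under the alternatives, *Osm* kept its call in the *Ahr*-/- response, on day 2 and in the difference of responses, and *Il6* kept its call in each genotype's response. The count of members called was 5 in the *Ahr*-/- response, 3 in the *Ahr*+/- response, 3 on day 2, 0 in untreated skin and 1 in the difference of responses. With array 3 as the sole IMQ-treated *Ahr*-/- array it was 3 in the *Ahr*-/- response and 1 on day 2. It was 1 in the *Ahr*+/- response with a fit to the groups compared alone or an adjusted p under 0.01. On day 2 it was 1 with the *Gapdh* covariate and 5 with array weights. In the difference of responses it was 3 after centring, 2 after a second quantile normalization and 2 with array weights. Leaving out single arrays gave 4 to 6, 1 to 3, 2 to 4, 0 and 1 to 3 calls in these 5 comparisons. The cause of these changes was not tested. No detection calls were used, so that *Il11*, *Lif*, untreated *Il6* and untreated *Osm* may be background and their changes understated. The counts of all genes called moved widely as well, for day 2 between 27 and 2019 over the settings other than omissions, against 724.

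The direction turned for members that were not called. With the mean of all probe sets, *Il6st* gave -0.029 in the *Ahr*-/- response, 0.18 in the *Ahr*+/- response, -0.12 on day 2 and -0.21 in the difference of responses, where *Il6ra* gave -0.12 and *Osmr* -0.087, and *Socs3* gave 0.075 in untreated skin. With the *Gapdh* covariate, *Lif* gave -0.42 in the *Ahr*-/- response, -0.29 on day 2 and -0.28 in the difference of responses, where *Il6ra* gave -0.26. With array 3 as the sole IMQ-treated *Ahr*-/- array, the same values were -0.54, -0.25 and -0.20 for *Lif* and -0.15 for *Il6ra*. With array weights, *Il6ra* gave 0.017 on day 2, and *Il6* gave 0.017, *Socs3* 0.050 and *Stat3* 0.17 between genotypes in untreated skin. Over omissions of single arrays, *Lif* ranged between -0.0345 and 0.64 in the *Ahr*-/- response and *Il6ra* between -0.41 and 0.31 in the difference of responses. In untreated skin the ranges were -0.13 to 0.13 for *Il6*, -0.45 to 0.27 for *Il6ra*, -0.20 to 0.26 for *Il6st*, -0.23 to 0.10 for *Lif*, -0.22 to 0.029 for *Osm*, -0.15 to 0.35 for *Osmr*, -0.35 to 0.16 for *Socs3* and -0.35 to 0.22 for *Stat3*.

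Replicate numbers did not pair the arrays. Deviations of same-numbered arrays from their group means had correlations of -0.18 to 0.32, and no comparison had all of its pairs over 0.1. With the replicate number as a block the counts were 5, 3, 3, 0 and 1, the same as without the block. Among the other genes named, the block took the call from *Saa2* and *Flg* on day 2 and from *Lrg1*, *Timp1* and *Krt1* in the difference of responses. No called value of a gene named besides the 9 changed its direction under any alternative.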
